A study of Mus musculus with 15 samples.

Results

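Intraflagellar transport (IFT) and BBSome genes were followed in inflamed mouse lung with and without transplanted mesenchymal stem cells (MSCs). The group was chosen by symbol alone: protein-coding genes named Ift or Bbs with a number, or Dync2 with any ending, together with Wdr19, Wdr35, Ttc21b, Tulp3, Kif3a, Kif3b and Kifap3. It held 31 of the 55421 genes in the count table, of which 21976 were protein-coding, and 1 more gene with a matching symbol, the antisense RNA Ift88os, was not protein-coding. All 31 members had enough counts to be tested among 19562 genes. By the complexes their proteins join, 7 belonged to the IFT-B1 core, 4 to the IFT-B2 group, 6 to IFT-A, 2 to the dynein-2 motor, 3 to the kinesin-2 motor, 6 to the BBSome and 2 to the chaperonin-like BBS proteins, and Tulp3 is an adaptor that IFT-A carries.

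Intraflagellar transport moves cargo along the microtubules inside a cilium, the hair-like projection of most cell types. Kinesin-2 drives trains of IFT-B and IFT-A complexes towards the tip and dynein-2 drives them back, while the BBSome is a coat complex that rides the trains and carries membrane receptors, above all out of the cilium. In the lung, multiciliated cells of the airway lining bear many motile cilia that clear mucus, and fibroblasts and other cells bear a single non-motile cilium that uses the same machinery.

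Lungs came from 15 female wild-type C57BL/6 mice, 5 in each of 3 groups, and 1 total RNA library was made per mouse from lung lobes. Every mouse inhaled house dust mite (HDM) extract, an allergen that produces an asthma-like airway inflammation, at 10 µg on 5 days of each of 2 weeks, and lungs were taken on day 15. The HDM group had the extract alone; the MSC day 6 group also had adipose MSCs through the nose on day 6, which the study calls long-term, and the MSC day 13 group had them on day 13, which it calls short-term. No age is given in the labels, and saline-treated mice were not analysed here, so every value compares inflamed lungs with one another. The comparisons ask what early and late MSC delivery do to the inflamed lung. Both MSC groups are compared with the same HDM libraries, so both results share any chance deviation of those 5.

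Total counts per library were 29635897 to 44201637 in HDM, 31762964 to 41762167 in MSC day 6 and 17182599 to 32119067 in MSC day 13. Levels are given in CPM, each count as a share of its library on a fixed common scale, with library sizes scaled by TMM, a method that corrects for library composition. One library, MSC day 13 replicate 3, stood apart: it had the lowest total, and the summed level of 12 thymocyte markers was 6008.5 CPM in it against 126.7 to 190.7 CPM in the other 14. Rag1, part of the recombinase of developing lymphocytes, was at 1951 CPM there and at 0.152 to 7.07 CPM elsewhere. The summed level of 3 satellite repeat transcripts was 171590 CPM there and 7.14 to 451.8 CPM elsewhere. That library had counts for 43174 genes, and the others for 26542 to 29154. Foxj1, the master regulator of motile cilia, was at 35.8 CPM, the lowest of all libraries, against 45.0 to 99.7 CPM. Of the 31 members, 10 had their lowest and 4 their highest level of all 15 libraries in this one. Results are therefore given with and without it. In whole lung, fewer cells of a type and less RNA per cell cannot be told apart.

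**Figure D1:**
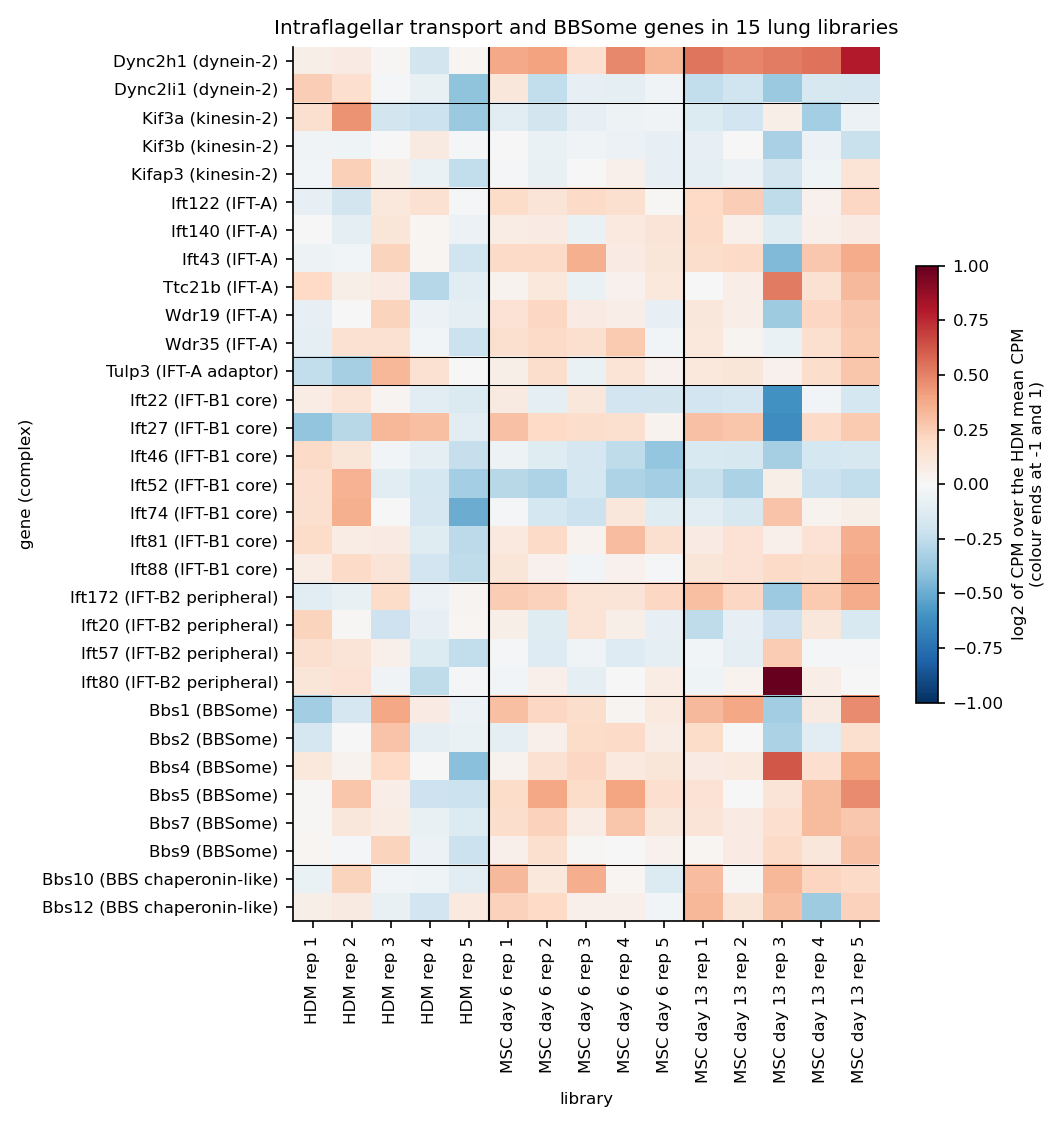
Log2 of each library's CPM over the mean CPM of the 5 HDM libraries for the 31 members (vertical), grouped by complex, in the 15 libraries (horizontal); red is higher and blue lower, and colour ends at -1 and 1. Dync2h1 is red across the 10 MSC libraries, and MSC day 13 replicate 3 differs from its neighbours in many members, Ift80 most of all.

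Dync2h1, the heavy chain that carries the motor activity of dynein-2, was the only member that passed in MSC day 13 against HDM with all libraries. With all libraries it did not pass in MSC day 6 against HDM or between both MSC groups. Its level was 55.7, 56.5, 54.0, 47.0 and 54.4 CPM in the 5 HDM libraries, 69.8, 70.9, 60.0, 74.6 and 67.4 CPM in MSC day 6, and 77.8, 75.2, 76.5, 77.8 and 92.6 CPM in MSC day 13. Every MSC day 6 library lay above every HDM library, and every MSC day 13 library lay above every MSC day 6 library. Of all tested genes 1.85% and 1.06% were wholly higher in these comparisons, and 2.52% in MSC day 13 against HDM. The means of Dync2h1 were 53.5 ± 3.77 CPM in HDM, 68.5 ± 5.41 CPM in MSC day 6 and 80.0 ± 7.14 CPM in MSC day 13 (SD, n = 5 each).

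Dync2h1 rose in MSC day 13 over HDM by 0.58 on the log2 scale, a fold of 1.49 (95% interval of the log2 change 0.41 to 0.75, adjusted p = 0.00549, edgeR quasi-likelihood test with Benjamini-Hochberg adjustment over all tested genes). It was rank 5 of the 19562 genes by p. Of all tested genes, 1.9% passed as higher in this comparison, and Dync2h1 was the only 1 of the 31 members to do so. As lower 2.89% of all genes and 0 members passed. The call was lost when only the 10 libraries of these groups were fitted, with a log2 change of 0.60 and an adjusted p = 0.0784 by edgeR. With MSC day 13 replicate 3 left out of that fit it passed, at 0.61 and an adjusted p = 0.035 by edgeR. In the fit of all groups without that replicate the log2 change was 0.61 (adjusted p = 0.00362, edgeR). Dync2h1 in that library, at 76.5 CPM, lay within the range of the rest of its group.

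In MSC day 6 against HDM the log2 change of Dync2h1 was 0.36, a fold of 1.28 (95% interval 0.19 to 0.53), and did not pass with all 15 libraries (adjusted p = 0.0789, edgeR). In the fit without MSC day 13 replicate 3, a library of neither group, it passed, with a log2 change again of 0.36 and an adjusted p = 0.0325 by edgeR. With the 10 libraries of these groups fitted alone it did not pass, at 0.36 and an adjusted p = 0.064 by edgeR. Between both MSC groups, MSC day 13 was higher by 0.22 (95% interval 0.05 to 0.39) with an unadjusted p = 0.0134 and an adjusted p = 0.623 by edgeR, so this difference did not pass. The F test over all 3 groups passed for Dync2h1, with an adjusted p = 0.0116 by edgeR and 0.0064 without MSC day 13 replicate 3. It passed for 1.61% of all genes, and for 4.22% without that library. Without HDM replicates 1 and 2 the F test passed for 0 of the 31 members and for 1 gene in all, and with MSC day 13 replicate 3 left out as well it passed for Dync2h1 again.

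Dync2h1 has the longest exonic sequence of the members, 16348 bases, and lies on chromosome 9 at 6928503 to 7184446 (GRCm38, minus strand). Among the 1426 protein-coding genes with at least 10000 exonic bases, the median log2 change in MSC day 13 against HDM was 0.03 and 1.54% passed as higher, against 0.573%, 0.685% and 1.38% of genes below 2000, 2000 to 5000 and 5000 to 10000 bases. Without MSC day 13 replicate 3 these shares were 4.42% of the longest genes and 1.28%, 1.77% and 2.81% of the shorter ones, so the share called higher rose with length in both fits. Correcting every library for exonic length, a step chosen after seeing the data, gave Dync2h1 a log2 change of 0.56 (adjusted p = 0.00386, edgeR), and 0.59 without replicate 3 (adjusted p = 0.00181, edgeR). The 200 bases before its RefSeq start are shown as the promoter of the member that changed most, chr9:7177059-7177258, minus strand, build GRCm38.p6. They hold no letters of the X-box searched for below, and so no capitals. On the minus strand the GENCODE span begins at 7184446, so this RefSeq start lies inside it. Bases before that outer end were not searched.
Dync2h1 promoter: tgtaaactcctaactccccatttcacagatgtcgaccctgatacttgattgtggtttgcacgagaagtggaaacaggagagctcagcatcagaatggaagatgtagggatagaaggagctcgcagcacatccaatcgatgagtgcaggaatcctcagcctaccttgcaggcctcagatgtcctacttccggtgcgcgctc

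Dync2li1, the light intermediate chain that binds the Dync2h1 heavy chain, overlapped between the groups. Its level was 25.9, 24.5, 21.5, 20.8 and 16.6 CPM in HDM, 23.6, 18.4, 20.7, 20.6 and 21.3 CPM in MSC day 6, and 18.4, 19.0, 16.9, 19.6 and 19.4 CPM in MSC day 13. The spread was widest in HDM, whose replicates 1 and 2 were the highest of all libraries. The log2 change in MSC day 13 against HDM was -0.23 (95% interval -0.46 to 0.00, adjusted p = 0.221, edgeR), and in MSC day 6 it was -0.06 (adjusted p = 0.843, edgeR). Without HDM replicates 1 and 2 these changes were -0.06 and 0.09. With all libraries the intervals of the heavy and the light intermediate chain in MSC day 13 against HDM lay apart.

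The kinesin-2 motor has the motor subunits Kif3a and Kif3b and the cargo-binding subunit Kifap3. With edgeR 0 of the 3 passed in any comparison, and 0 were at an unadjusted p under 0.05 with all libraries. Of all tested genes 7.74% to 23.7% were at that level, depending on the comparison. Kif3b was at 65.0, 64.7, 66.5, 71.1 and 66.1 CPM in HDM, 66.5, 63.6, 65.2, 64.1 and 63.0 CPM in MSC day 6, and 63.1, 66.4, 53.2, 64.0 and 57.1 CPM in MSC day 13. Those levels overlapped between all groups. Its log2 change in MSC day 13 against HDM was -0.13 (95% interval -0.28 to 0.01, adjusted p = 0.242, edgeR), with the smallest of its values in replicate 3, and -0.07 without that library.

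Kif3a was at 41.4, 50.7, 32.6, 32.0 and 28.7 CPM in HDM, 34.5, 32.7, 35.1, 35.9 and 36.2 CPM in MSC day 6, and 33.8, 32.5, 38.7, 29.4 and 35.6 CPM in MSC day 13. HDM replicates 1 and 2 were the highest of all 15 libraries, and the other 3 HDM libraries lay among or below the MSC libraries. The log2 change in MSC day 13 was -0.13 (adjusted p = 0.589, edgeR). Without HDM replicates 1 and 2 it was 0.14. Kifap3 differed by -0.04 and -0.02 in MSC day 13 and MSC day 6 against HDM, with levels of 38.4 to 53.8 CPM over all libraries.

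**Figure D2:**
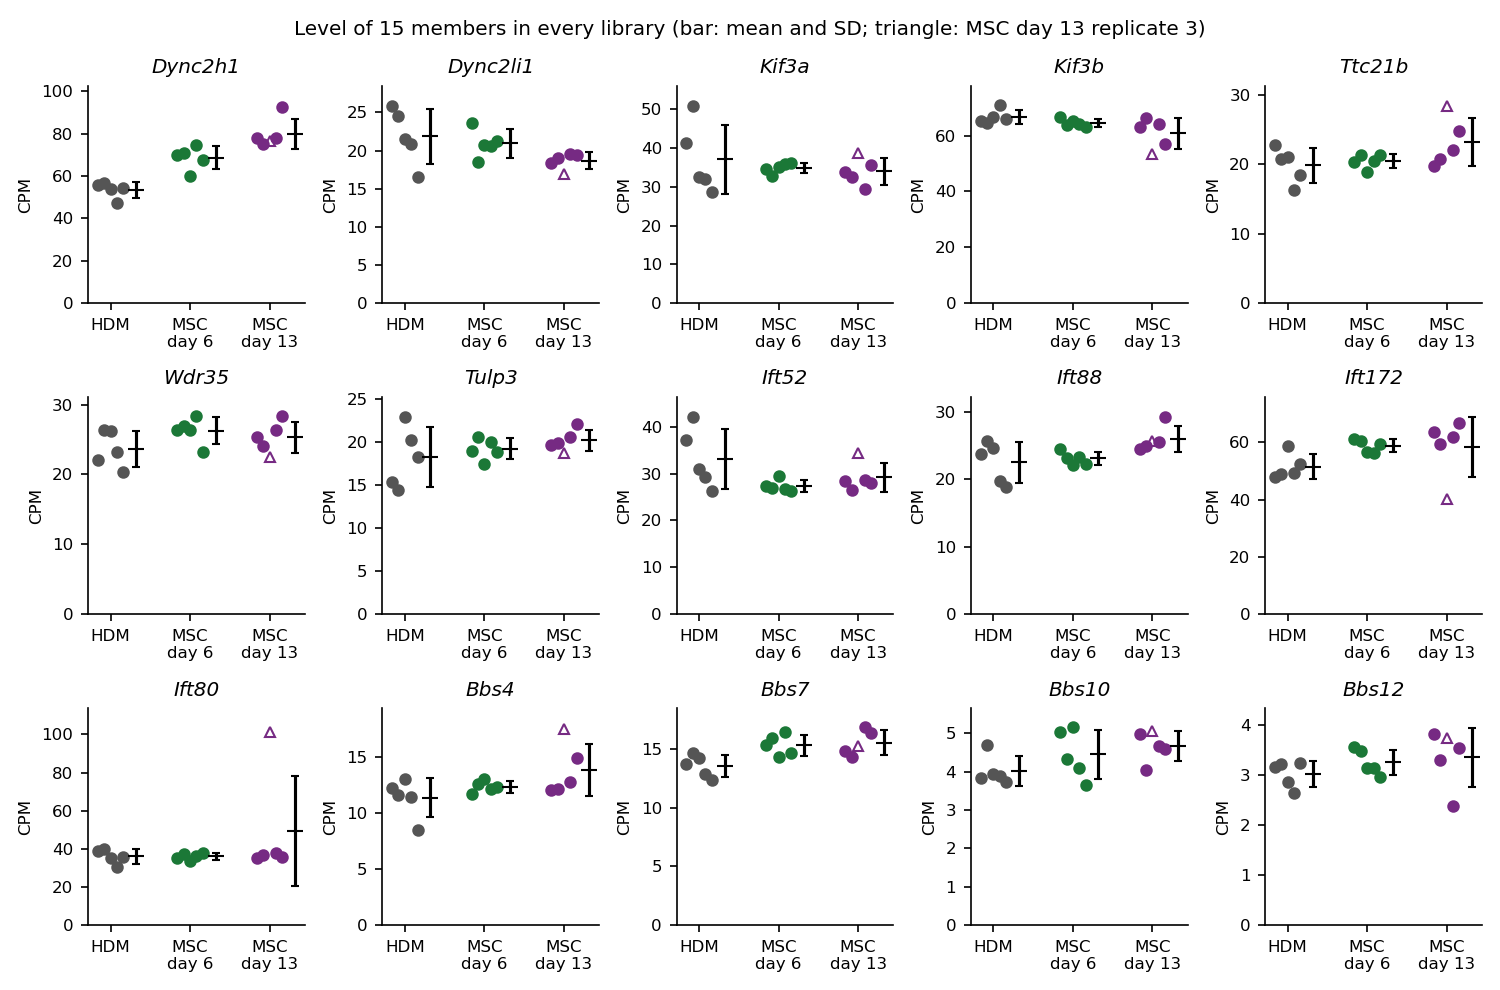
CPM (vertical, from 0) of 15 members in each of the 5 libraries of the HDM, MSC day 6 and MSC day 13 groups (horizontal), with the group mean and SD as a bar; the open triangle is MSC day 13 replicate 3. For Dync2h1 the 3 groups do not overlap, and for Ift80 the triangle at 101.4 CPM stands above 14 libraries at 30.2 to 39.8 CPM.

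IFT-A, the complex that pairs with dynein-2 for the return journey and brings receptors into the cilium, had all 6 members above 0 in both MSC groups against HDM, and 0 of the 6 passed edgeR's test in either, with 0 at an unadjusted p under 0.05. The median log2 change was 0.10 in MSC day 13 and 0.11 in MSC day 6, against medians of 0.03 and 0.01 over all tested genes. Of all tested genes 54.2% and 52.2% were above 0, and 23.7% and 13.9% were at an unadjusted p under 0.05. Without MSC day 13 replicate 3 the 6 changes in MSC day 13 ranged from 0.11 (Ift140) to 0.27 (Ift43), with a median of 0.17. In that fit 0 passed in either group (Ift43 adjusted p = 0.0704, edgeR). At an unadjusted p under 0.05 were 3 in MSC day 13 and 1 in MSC day 6, beside 25.1% and 20.2% of all tested genes. Ttc21b, the subunit also called IFT139, was at 22.8, 20.7, 21.0, 16.3 and 18.4 CPM in HDM, 20.3, 21.3, 19.0, 20.5 and 21.4 CPM in MSC day 6, and 19.7, 20.8, 28.4, 22.1 and 24.8 CPM in MSC day 13. Its highest value was that of replicate 3, and the groups overlapped (log2 change 0.22, adjusted p = 0.229, edgeR).

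Wdr35, also called IFT121, was at 22.0, 26.3, 26.2, 23.2 and 20.4 CPM in HDM, 26.4, 26.9, 26.3, 28.4 and 23.1 CPM in MSC day 6, and 25.4, 24.0, 22.5, 26.4 and 28.3 CPM in MSC day 13. It overlapped between all groups, with log2 changes of 0.15 in MSC day 6 (adjusted p = 0.492, edgeR) and 0.10 in MSC day 13 (adjusted p = 0.539, edgeR), and of 0.16 in both without replicate 3. Ift43, Ift122, Wdr19 and Ift140 had their lowest level of all libraries in MSC day 13 replicate 3. Ift43, for example, was at 14.7 CPM there and at 22.6 to 25.9 CPM in the rest of its group, against 17.4 to 23.4 CPM in HDM. Tulp3, the adaptor through which IFT-A delivers receptors, was at 15.4, 14.5, 22.9, 20.3 and 18.2 CPM in HDM, 19.0, 20.6, 17.5, 20.0 and 18.9 CPM in MSC day 6, and 19.7, 19.8, 18.8, 20.6 and 22.1 CPM in MSC day 13. Its lowest 2 and its highest value were all in HDM, and it did not pass (log2 change 0.15 in MSC day 13, adjusted p = 0.463, edgeR; -0.01 without HDM replicates 1 and 2).

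IFT-B is the part of the train that binds kinesin-2 and tubulin. In the IFT-B2 group, Ift172 reached 47.9, 48.9, 58.6, 49.4 and 52.5 CPM in HDM, 61.2, 60.5, 56.7, 56.2 and 59.4 CPM in MSC day 6, and 63.5, 59.3, 40.1, 61.7 and 66.7 CPM in MSC day 13. With replicate 3 at 40.1 CPM, the lowest of all libraries, MSC day 13 overlapped HDM and did not pass (log2 change 0.18, 95% interval -0.05 to 0.41, adjusted p = 0.338, edgeR). Without that library every MSC day 13 value lay above every HDM value, and Ift172 rose by 0.31, a fold of 1.24 (95% interval 0.16 to 0.45, adjusted p = 0.0196, edgeR). With the libraries of both groups fitted alone, again without replicate 3, the change was 0.31 and did not pass (adjusted p = 0.0796, edgeR). In the fit of 14 libraries 3.23% of 19657 genes passed as higher and 3.36% as lower, and 2 of the 31 members passed as higher, Ift172 and Dync2h1. Groups that do not overlap, with MSC day 13 higher, were seen for these 2 and for 4.25% of all genes. For Ift172, MSC day 6 against HDM gave 0.19 (adjusted p = 0.46, edgeR) and, without that library, 0.20 (adjusted p = 0.108, edgeR). Its F test passed without the library (adjusted p = 0.0417, edgeR) and not with it (adjusted p = 0.45).

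Ift172 holds GTTGCC, an arm of the X-box described below, at bases 1 to 6 from its RefSeq start. It is in capitals in the 30 bases shown here (chr5:31291097-31291126, minus strand, GRCm38.p6). Dync2h1 and Ift88 hold it on the other strand, where it reads GGCAAC, at bases 37 to 42 and 22 to 27 (chr9:7177009-7177038, minus strand, and chr14:57424080-57424109, plus strand). The arm was in 11 of 27 members with a RefSeq window, or 40.7%, against 14.1% of genes with one. It is therefore not particular to the members shown here.
Ift172: tgtcgcactcacGTTGCCtgtgcgtcagcg
Dync2h1: catagcgacggagcttGGCAACtgctgagt
Ift88: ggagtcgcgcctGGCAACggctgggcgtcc

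Ift80, another IFT-B2 subunit, depended on a single library. It was at 39.1, 39.8, 35.1, 30.2 and 35.8 CPM in HDM, 35.3, 37.2, 33.6, 36.0 and 37.8 CPM in MSC day 6, and 35.0, 36.9, 101.4, 37.6 and 35.9 CPM in MSC day 13. Replicate 3 held 2.79 times the mean of the other 4 libraries of its group. The log2 change in MSC day 13 against HDM was 0.45 (95% interval -0.07 to 0.96, adjusted p = 0.273, edgeR) with replicate 3 and 0.03 without it. Thymocyte markers and satellite repeat transcripts were high in that same library, and their part in the Ift80 value was not tested. Ift20, which also works at the Golgi, and Ift57 were at -0.11 and 0.02 in MSC day 13, and at -0.07 and -0.02 without replicate 3, and did not pass.

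The IFT-B1 core showed no common direction. In MSC day 13 against HDM 4 of its 7 members were above 0 and 3 below, with a median of 0.03. The counts were 3 above and 4 below, with a median of -0.03, without MSC day 13 replicate 3. In MSC day 6 3 were above and 4 below, with a median of -0.05. Ift88, whose loss in mice causes polycystic kidneys, was at 23.7, 25.7, 24.6, 19.7 and 18.9 CPM in HDM, 24.4, 23.2, 22.1, 23.3 and 22.3 CPM in MSC day 6, and 24.5, 24.9, 25.7, 25.5 and 29.3 CPM in MSC day 13. MSC day 13 lay wholly above MSC day 6, by a narrow margin, and overlapped HDM. The log2 change was 0.21 against HDM (adjusted p = 0.189, edgeR) and 0.17 against MSC day 6 (adjusted p = 0.623, edgeR). Exons of Ift88 overlap those of Ift88os on the opposite strand. Ift52 was at 37.3, 42.1, 30.9, 29.3 and 26.2 CPM in HDM, 27.3, 26.8, 29.4, 26.8 and 26.2 CPM in MSC day 6, and 28.4, 26.6, 34.5, 28.6 and 27.9 CPM in MSC day 13. Its log2 change in MSC day 6 was -0.28 (95% interval -0.53 to -0.04, adjusted p = 0.29, edgeR). HDM replicates 1 and 2 were its highest libraries, and without them that change was -0.07, a shift that follows from which libraries were left out.

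Of the other core members, Ift46 was at -0.19 against HDM in both MSC groups (adjusted p = 0.199 in MSC day 13 and 0.346 in MSC day 6, edgeR). Ift81 was at 0.16 in both (adjusted p = 0.308 and 0.462, edgeR). Ift22 and Ift27, small GTPase-like subunits, had their lowest levels in MSC day 13 replicate 3, at 10.6 and 7.52 CPM. Their log2 changes in MSC day 13 were -0.22 (adjusted p = 0.24, edgeR) and 0.13 (adjusted p = 0.701, edgeR). Without that library they were -0.12 (adjusted p = 0.43, edgeR) and 0.28 (adjusted p = 0.212, edgeR), and Ift27 varied within HDM from 8.81 to 14.5 CPM. Ift74 differed by 0.03 in MSC day 13, by -0.03 there without replicate 3, and by -0.07 in MSC day 6.

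The BBSome was mostly on the positive side without any member passing. In MSC day 13 against HDM 5 of 6 members were above 0, with a median log2 change of 0.21, and in MSC day 6 all 6 were, with a median of 0.14. Of all tested genes 54.2% and 52.2% were above 0 in these comparisons. At an unadjusted p under 0.05 were 2 and 1 of the 6 by edgeR, beside 23.7% and 13.9% of all tested genes. Bbs7 was at 13.7, 14.7, 14.3, 12.9 and 12.4 CPM in HDM, 15.3, 16.0, 14.3, 16.5 and 14.7 CPM in MSC day 6, and 14.8, 14.4, 15.3, 16.9 and 16.4 CPM in MSC day 13. The groups overlapped narrowly, by the top HDM libraries, and the log2 changes were 0.20 in MSC day 13 (95% interval 0.02 to 0.37, adjusted p = 0.161, edgeR) and 0.18 in MSC day 6 (adjusted p = 0.352, edgeR). Bbs4 was at 12.2, 11.6, 13.0, 11.4 and 8.46 CPM in HDM, 11.6, 12.6, 13.0, 12.1 and 12.3 CPM in MSC day 6, and 12.0, 12.1, 17.4, 12.7 and 14.9 CPM in MSC day 13. Replicate 3 was its highest library and HDM replicate 5 its lowest, and it did not pass (log2 change 0.28, adjusted p = 0.179, edgeR). Exons of Bbs4 overlap those of Adpgk on the opposite strand.

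Bbs1, Bbs2, Bbs5 and Bbs9 gave log2 changes of 0.22, -0.00, 0.22 and 0.14 in MSC day 13 against HDM and of 0.16, 0.08, 0.27 and 0.05 in MSC day 6. In the fit without MSC day 13 replicate 3 Bbs2 was at 0.08 in MSC day 13, so that all 6 were above 0, and Bbs1 was at 0.34 (adjusted p = 0.109, edgeR). Bbs10 and Bbs12, which resemble chaperonins and help the BBSome assemble, were the lowest of all members. Bbs10 was at 3.84, 4.70, 3.95, 3.90 and 3.73 CPM in HDM, 5.04, 4.34, 5.17, 4.09 and 3.66 CPM in MSC day 6, and 4.97, 4.05, 5.05, 4.67 and 4.60 CPM in MSC day 13. Bbs12 was at 3.15, 3.22, 2.86, 2.64 and 3.23 CPM in HDM, 3.54, 3.47, 3.13, 3.13 and 2.96 CPM in MSC day 6, and 3.81, 3.29, 3.73, 2.37 and 3.54 CPM in MSC day 13. Both overlapped between all groups, with log2 changes of 0.21 and 0.14 in MSC day 13 (adjusted p = 0.322 and 0.571, edgeR). Bbs12 shares exonic bases with Gm43439 on its own strand and with Cetn4 on the other, so some of its counts may be theirs.

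The X-box is the DNA element bound by RFX transcription factors, which switch on many ciliary genes. It was searched as GTNNCC followed after 0 to 3 bases by GGNNAC, a pattern that reads the same on both strands, in RefSeq windows of 250 bases before to 50 after the start, build GRCm38.p6. Windows were found for 27 members, all but Dync2li1, Ift122, Ift80 and Ift81. A match was present in 6 of the 27, or 22.2%, against 4.39% of 27018 genes with a window. The single arm GTTGCC, on either strand and overlapping some X-boxes, was in 40.7% of members against 14.1% of genes. The forkhead element GTAAACA, on either strand, was in 0 of 27 members against 4.05% of genes. The genes with a window were not limited to expressed ones or matched to the members in base composition. A match is a run of letters and not a measured site.

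The promoter of Bbs7 is shown because, of the members with a value given for every library, it is the one with a match upstream of the start. Capitals mark the match, and the sequence is chr3:36613390-36613589, minus strand, GRCm38.p6.
Bbs7 promoter: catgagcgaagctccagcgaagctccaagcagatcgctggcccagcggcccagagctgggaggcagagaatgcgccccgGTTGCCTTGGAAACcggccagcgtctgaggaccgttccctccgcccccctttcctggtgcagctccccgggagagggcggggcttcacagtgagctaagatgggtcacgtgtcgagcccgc

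All 8 matches, in 6 members, are given here with the fixed letters in capitals, so that their spacing can be compared. On the minus strand of GRCm38.p6 are Bbs1 (chr19:4906613-4906626), Bbs4 (chr9:59353472-59353485) and Bbs7 (chr3:36613497-36613510). On the plus strand are Ift22 (chr5:136908087-136908100 and chr5:136908117-136908130), Ift57 (chr16:49699207-49699220 and chr16:49699234-49699246) and Wdr19 (chr5:65199662-65199675).
Bbs1: GTtgCCaaGGcgAC
Bbs4: GTcgCCcgGGaaAC
Bbs7: GTtgCCttGGaaAC
Ift22, first: GTttCCtgGGctAC
Ift22, second: GTcgCCgtGGaaAC
Ift57, first: GTtgCCgtGGtgAC
Ift57, second: GTtgCCtGGtaAC
Wdr19: GTctCCtgGGtgAC
The second match of Ift57 has a spacer of 1 base and the other 7 a spacer of 2. None of these 6 members passed a test in any of the 3 comparisons. Of the members that did, Dync2h1 and Ift172 hold the single arm and no full match in their RefSeq windows. Members that passed in no fit hold the single arm as well, such as Kif3a and Wdr35.

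Counted over the whole group, 22 of 31 members were above 0 and 9 below in MSC day 13 against HDM, with a median log2 change of 0.13, while 54.2% of all tested genes were above 0 and their median was 0.03. At an unadjusted p under 0.05 were 5 of 31 members, beside 23.7% of all genes, and 10 of 31 beside 25.1% without MSC day 13 replicate 3. MSC day 6 against HDM also had 22 above and 9 below, with a median of 0.07 beside 52.2% and 0.01 over all genes. In MSC day 6 against HDM 0 of 31 members passed edgeR's test with all libraries, with 4 at an unadjusted p under 0.05 beside 13.9% of all genes, and both DESeq2 and limma voom called 1, Dync2h1. Of all genes 0.00511% passed as higher and 0.092% as lower there. Without MSC day 13 replicate 3 these were 0.483% and 1.72%, 1 member, Dync2h1, passed as higher, and 7 were at an unadjusted p under 0.05 beside 20.2% of all genes. In MSC day 13 against MSC day 6 0 of 31 members passed edgeR, DESeq2 or limma voom, 1 was at an unadjusted p under 0.05 beside 7.74% of all genes, and by edgeR 0% of all genes passed. There 14 members were above 0 and 17 below, with 51.4% of all genes above 0. The balance turned without MSC day 13 replicate 3 to 24 above and 7 below, beside 10247 of 19657 genes above 0, with medians of 0.04 over the members and 0.01 over all genes.

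Groups that do not overlap were seen for 1 member, Dync2h1, in MSC day 13 against HDM (2.52% of all genes were wholly higher) and in MSC day 6 against HDM (1.85%). In MSC day 13 against MSC day 6 they were seen for 2 members, Dync2h1 and Ift88, against 1.06% of all genes.

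**Figure D3:**
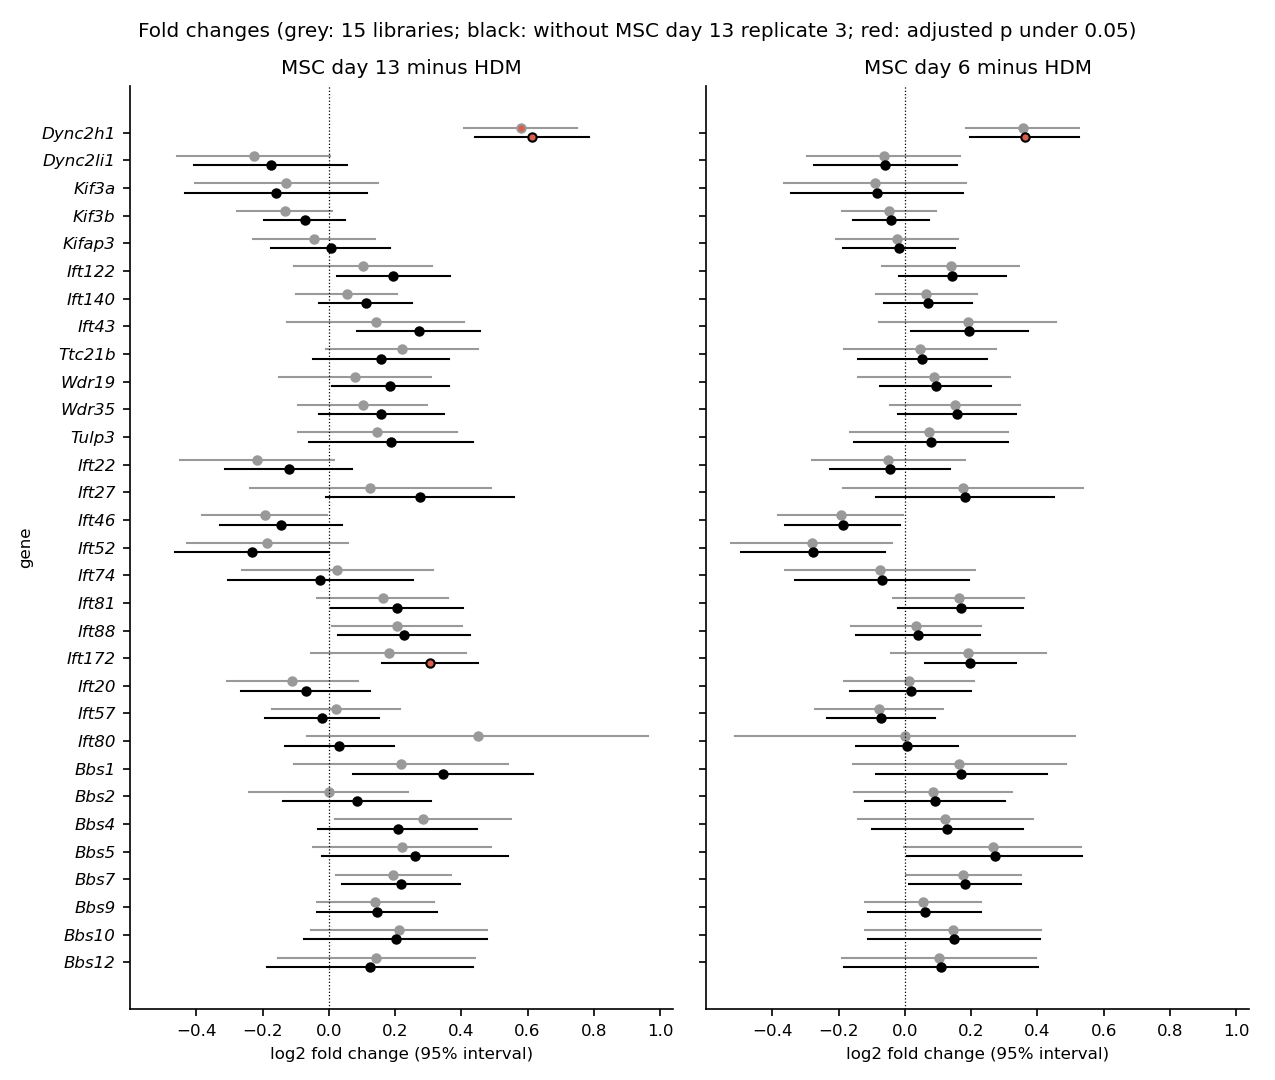
Log2 fold change with its 95% interval (horizontal) of each of the 31 members (vertical) in MSC day 13 minus HDM and MSC day 6 minus HDM, from edgeR; grey is the fit of 15 libraries, black the fit without MSC day 13 replicate 3, and red points passed an adjusted p of 0.05. Dync2h1 at 0.58 and 0.61 lies to the right of the other members, and the grey interval of Ift80 reaches 0.96 where the black value is 0.03.

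The summed level of the 31 members was 830.8, 854.8, 846.4, 769.0 and 732.4 CPM in HDM, 853.7, 839.8, 824.0, 847.7 and 814.5 CPM in MSC day 6, and 842.7, 837.2, 855.0, 856.3 and 908.8 CPM in MSC day 13. HDM replicates 4 and 5 were below all other libraries, and the other 3 HDM libraries lay within the MSC range. HDM replicate 5 had the lowest level of all libraries for 12 members, and MSC day 13 replicate 5 the highest for 9. Dync2h1 made up 47.0 to 92.6 CPM of these sums.

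Per length, as CPM per kilobase of exon (RPKM), the order of the members was different from that in CPM. Ift20 was highest at 21.9 ± 2.15 RPKM (SD, n = 15 libraries), followed by Ift43 at 13.1 ± 1.81 RPKM, a gap larger than either spread. The gap from Ift43 to the next member was smaller than the spread of Ift43. Kif3b at 11.4 ± 0.737, Kifap3 at 11.2 ± 0.941, Dync2li1 at 11.0 ± 1.42 and Ift52 at 10.7 ± 1.65 RPKM did not differ from one another beyond their spread. Dync2h1 had the highest mean CPM over the 15 libraries, though in HDM Kif3b was above it at 66.7 ± 2.58 against 53.5 ± 3.77 CPM (SD, n = 5). Per length it was rank 19 at 4.12 ± 0.755 RPKM over all libraries, with 3.27 RPKM in HDM, 4.19 RPKM in MSC day 6 and 4.89 RPKM in MSC day 13, below its partner Dync2li1. Bbs10 at 1.44 ± 0.174 RPKM and Bbs12 at 1.32 ± 0.161 RPKM were the lowest and did not differ beyond their spread.

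**Figure D4:**
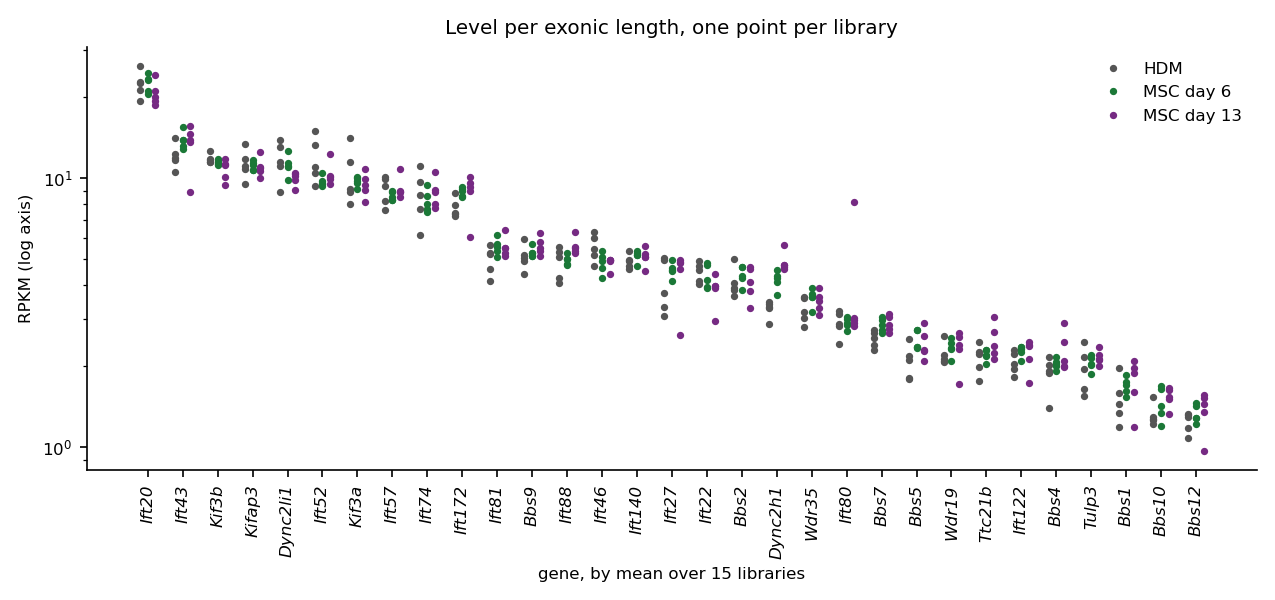
RPKM on a log axis (vertical) of the 31 members in order of their mean over 15 libraries (horizontal), 1 point per library, coloured by group. Levels run from 21.9 RPKM for Ift20 to 1.32 RPKM for Bbs12, and Dync2h1 lies at 4.12 RPKM on average.

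Partners of the same machinery that carry other symbols were counted beside the members. Of all tested genes 23.7% in MSC day 13 and 13.9% in MSC day 6 against HDM were at an unadjusted p under 0.05. Of 13 tested genes of related IFT subunits and motors, 0 passed in either MSC group against HDM; Cluap1, an IFT-B2 subunit, was at 0.30 (adjusted p = 0.145, edgeR) and Wdr60, a dynein-2 intermediate chain, at 0.29 (adjusted p = 0.174, edgeR) in MSC day 13. With edgeR 2 of the 13 were at an unadjusted p under 0.05 in MSC day 13 and 1 in MSC day 6, Kif3c, a kinesin-2 motor subunit, at 0.27 (adjusted p = 0.286). Of 11 related BBS genes 0 passed, with 5 and 2 at an unadjusted p under 0.05; Sdccag8, a centrosomal protein, was at 0.29 (adjusted p = 0.095, edgeR) and the ubiquitin ligase Trim32 at -0.26 (adjusted p = 0.147, edgeR) in MSC day 13.

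Of 20 tested genes of the transition zone, the gate at the base of the cilium, 0 passed edgeR's test with all libraries, with 1 at an unadjusted p under 0.05 in MSC day 13 and 2 in MSC day 6. For this list and those below, the shares of all tested genes at that level were 23.7% and 13.9%. Without MSC day 13 replicate 3, Cc2d2a rose by 0.28 (adjusted p = 0.0438, edgeR) and Tctn1 by 0.36 (adjusted p = 0.0455, edgeR) in MSC day 13 against HDM. In that fit 3.23% of all genes passed as higher. Of 13 genes of the basal body 0 passed edgeR's test with or without that library, with 2 in MSC day 13 and 0 in MSC day 6 at an unadjusted p under 0.05; Ccp110, which caps centrioles, was at 0.28 (adjusted p = 0.0538, edgeR). Of 21 genes of the ciliary membrane and its cargo 0 passed either way, with 1 and 2 at an unadjusted p under 0.05, and Arl2bp was at -0.34 in MSC day 13 (adjusted p = 0.0664, edgeR). Of 13 transcription factors of ciliogenesis 0 passed with all libraries, with 4 and 3 at an unadjusted p under 0.05. Without replicate 3 E2f4, a factor that takes part in multiciliated cell differentiation, fell in both MSC groups, by 0.44 in MSC day 13 (adjusted p = 0.0446, edgeR) and by 0.48 in MSC day 6 (adjusted p = 0.0448, edgeR). As lower 3.36% and 1.72% of all genes passed in that fit. Rfx3, a main X-box factor of cilia, was at 0.24 (adjusted p = 0.162, edgeR) in MSC day 13.

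Sums of multiciliated cell markers went with the members' sums in some libraries and not in others. HDM replicate 5 had the lowest member sum, 732.4 CPM, and, apart from MSC day 13 replicate 3, the lowest marker sum, 612.8 CPM. MSC day 13 replicate 5 had the highest of both, 908.8 and 1035 CPM. HDM replicate 2 had a member sum of 854.8 CPM at a marker sum of 650.7 CPM. MSC day 13 replicate 3 had the lowest marker sum and a member sum of 855.0 CPM. The markers' summed level over 23 genes was 612.8 to 898.6 CPM in HDM, 715.4 to 938.2 CPM in MSC day 6 and 539.9 to 1035 CPM in MSC day 13. The 539.9 CPM belongs to replicate 3, and the other 4 libraries of that group are at 817.9 CPM or more. With all libraries 0 of 23 passed edgeR's test in either MSC group against HDM, with 6 at an unadjusted p under 0.05 in each. Of all tested genes 23.7% in MSC day 13 and 13.9% in MSC day 6 were at that level. Without replicate 3, 6 of 23 passed as higher in MSC day 13 against HDM, beside the 3.23% of all genes. These were Dnah9 (log2 change 0.54), Ccdc39 (0.45), Cfap52 (0.69), Dnah11 (0.42), Dnah5 (0.49) and Ccdc114 (0.40), which build or dock the dynein arms and inner structures of motile cilia, with adjusted p from 0.0196 to 0.0408 by edgeR. The median over the 23 was then 0.31, beside 0.16 over the 31 members and 0.61 for Dync2h1. Foxj1 itself overlapped between HDM, at 45.0 to 99.4 CPM, and MSC day 13 without replicate 3, at 80.2 to 99.3 CPM. Whether the Dync2h1 and Ift172 differences follow the number of multiciliated cells was not tested.

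Markers of other cell types differed between the same groups. Of all tested genes 2.89% passed as lower and 1.9% as higher in MSC day 13 against HDM. In that comparison 23.7% were at an unadjusted p under 0.05. Without MSC day 13 replicate 3, 3.36% passed as lower and 3.23% as higher. In MSC day 6 against HDM 0.092% passed as lower with that library, and 1.72% as lower and 0.483% as higher without it. Of 10 B-cell markers 8 passed as lower in MSC day 13 against HDM and 1 in MSC day 6; without MSC day 13 replicate 3 these were 9 and 7. Their median log2 change in MSC day 6 was -0.70 with that library and -0.69 without it. Their sum was 441.0 to 635.5 CPM in HDM, 292.4 to 380.2 CPM in MSC day 6 and 188.4 to 377.2 CPM in MSC day 13. Of 8 smooth muscle markers 0 passed edgeR's test with all libraries, with 3 at an unadjusted p under 0.05 in MSC day 13, and 6 passed as higher in MSC day 13 without replicate 3, led by Tagln at 0.63 (adjusted p = 0.00575, edgeR), and 1 in MSC day 6. Their sum was 954.5 to 1214 CPM in HDM, 1173 to 1441 CPM in MSC day 6 and 739.5 to 1649 CPM in MSC day 13. With all libraries, MSC day 13 against HDM had 2 of 12 macrophage and monocyte markers and 1 of 10 endothelial markers passing as lower and 1 of 10 tested thymocyte markers as higher. In that comparison 0 of 10 club cell, 0 of 10 alveolar type 2, 0 of 8 alveolar type 1, 0 of 10 fibroblast, 0 of 15 cell cycle and 0 of 3 satellite repeat genes passed edgeR's test, with 0, 6, 1, 1, 4 and 3 at an unadjusted p under 0.05. Without replicate 3, 2 endothelial markers passed as lower and 1 cell cycle gene as higher. Their part in the members' values was not tested.

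**Figure D5:**
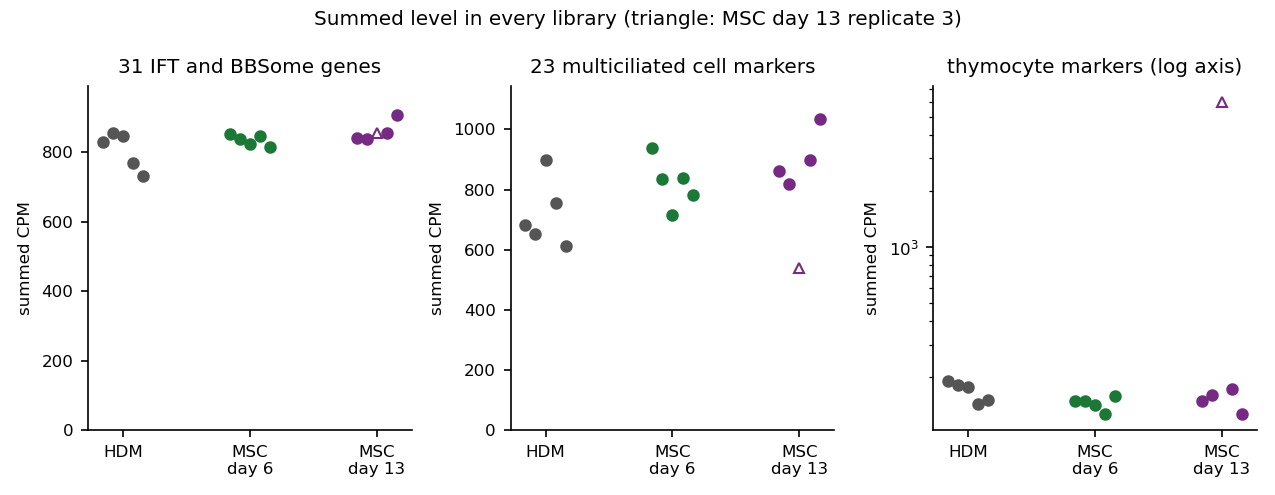
Summed CPM (vertical) of the 31 members, of 23 multiciliated cell markers and, on a log axis, of 12 thymocyte markers in each library of the 3 groups (horizontal); the open triangle is MSC day 13 replicate 3. The members' sums lie between 732.4 and 908.8 CPM, and the triangle is lowest for multiciliated markers at 539.9 CPM and far above all others for thymocyte markers at 6008.5 CPM.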

How the data were processed

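The authors deposited 1 table of raw counts per Ensembl gene, with 1 column per library, for 15 lung libraries made with a stranded total RNA kit, per the labels' protocols. The submitters' processing notes name STAR 2.5.3a and GRCm38. Counting program, strandedness and gene models: not given in the sources used here. Genes with overlapping exons may share reads. Gene positions, exonic lengths and overlaps were taken from GENCODE M21, and promoters from RefSeq (GRCm38.p6).

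Counts were filtered with filterByExpr, which kept 19562 of 55421 genes, scaled by TMM and fitted in 1 model of all 15 libraries with edgeR 4.0.16 (robust quasi-likelihood, R 4.3.3). The 3 comparisons and the F test over the groups are contrasts of it. The tests are two-sided, adjusted by the Benjamini-Hochberg method over all tested genes, and a gene passes at an adjusted p under 0.05. Intervals are 95% intervals of the log2 fold change. Each fit was repeated without MSC day 13 replicate 3 (19657 genes), a library singled out by its measured values. The steps were tested on simulated counts with known changes, in which no library had a composition of its own. That simulation does not cover a library like MSC day 13 replicate 3. The p-values judge a group difference against the spread between these mice, estimated with information shared over genes and over the groups of a fit. DESeq2 1.42.0, limma 3.58.1 voom with quality weights, other scalings and filters, and fits without single libraries were alternatives. A fit without HDM replicates 1 and 2 was another. For members whose highest or lowest HDM levels are in those 2 libraries, that fit moves the change by construction. It is no separate check there. Replicate numbers follow the order of deposit. Figures were drawn with matplotlib 3.10.9.

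The members and all gene lists were chosen with earlier results of these data known, and the member rule uses symbols alone, so counts over the members are a description. Levels in every library are given for members that passed in any fit and for the members of each complex with the smallest p, up to 2 named members per complex. Of each related list the genes that passed, or those with the smallest p, are named. Rfx3, Foxj1, Ift43, Ift46, Ift81, Ift27, Ift22 and Bbs1 were singled out after their values were seen.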

Additional observations from a re-analysis of the deposited data

Results flagged for a closer look

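In 16 of 96 sets of 5 libraries (31 members and their sum in 3 groups), 1 library lay far from the other 4, with a gap to its nearest neighbour above the share of the whole range that Dixon's test allows. For independent sets chance gives about 1 in 20. These sets share libraries and include the sum of the members, so the 16 cannot be set against that rate. MSC day 13 replicate 3 accounts for 6: Ift80 was high at 101.4 CPM (the others 35.0 to 37.6), Ift52 high at 34.5 CPM (26.6 to 28.6), Ift57 high at 30.9 CPM (24.3 to 25.7), Ift172 low at 40.1 CPM (59.3 to 66.7), Ift27 low at 7.52 CPM (13.2 to 14.2) and Ift46 low at 28.2 CPM (31.6 to 32.0).

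In MSC day 13 replicate 5, Dync2h1 was high at 92.6 CPM (75.2 to 77.8 in the others), Ift81 at 37.4 CPM (30.1 to 32.2), Ift88 at 29.3 CPM (24.5 to 25.7) and the sum of all members at 908.8 CPM (837.2 to 856.3). In HDM, Dync2h1 was low in replicate 4 at 47.0 CPM (54.0 to 56.5), Kif3b high in replicate 4 at 71.1 CPM (64.7 to 66.5), Bbs10 high in replicate 2 at 4.70 CPM (3.73 to 3.95) and Wdr19 high in replicate 3 at 29.2 CPM (23.3 to 24.9). In MSC day 6, Bbs9 was high in replicate 2 at 35.6 CPM (32.0 to 33.0) and Ift140 low in replicate 3 at 39.3 CPM (43.3 to 44.8).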

How the results depend on the processing

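In MSC day 13 against HDM 1 member passed. It was 1 to 2 when single libraries were left out, with 2 without MSC day 13 replicate 3 (Dync2h1 and Ift172), 3 with limma voom (Ift88 added) and 0 when only both groups were fitted. With the length correction and without replicate 3 it was 2, and without that library and HDM replicates 1 and 2 it was 3; these last 2 alternatives were chosen after seeing the data. In MSC day 6 against HDM the 0 became 1 (Dync2h1) without replicate 3 (range 0 to 1 over single libraries), with DESeq2, with limma voom, with the length correction, with that correction and without replicate 3, and without replicate 3 and HDM replicates 1 and 2. The F test's 1 member was 1 to 2 over single libraries, 2 with the length correction and without replicate 3, and 0 without HDM replicates 1 and 2. It was not run with DESeq2 or for fits of 2 groups. MSC day 13 against MSC day 6 gave 0 in all 28 alternatives. The cause was not tested.

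Dync2h1 in MSC day 13 against HDM passed in 27 of 28 alternatives, with log2 changes of 0.53 to 0.62 and an adjusted p of at most 0.0238 when single libraries were left out. Ift172 there passed in 4 of 28 and Ift88 in 2 of 28. No member that passed changed sign. Standard errors of the log2 change in MSC day 13 against HDM ran from 0.0674 (Kif3b) to 0.243 (Ift80), which limits what 5 libraries a group can show. No paired analysis was possible because the columns carry no replicate numbers shared between groups.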
